A study of Mus musculus with 6 samples.

Results

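The genes described here are imprinted genes, which are expressed from only the paternal or only the maternal copy, together with the growth network around Plagl1, in the mandibular arches of mouse embryos. They were taken by symbol from a list of 42 genes. A gene was measured if the platform annotation gave a probe set its symbol and no other, which held for 34 of 42, each with 1 such probe set; H19, Kcnq1ot1, Mirg, Gnas, Snrpn, Ube3a, Zrsr1 and Peg13 are not analysed here. Of the 34, 19 are known as paternally and 15 as maternally expressed. Arches of Tbx1-/- embryos (Tbx1 null, 3 arrays) were set against those of Tbx1+/+ embryos (wild type, 3 arrays), all of strain C57BL/6 at embryonic day 9.5, on Affymetrix Mouse Gene ST 1.0 arrays. The labels name no other allele and no treatment. Tissue of 3 embryos per genotype was pooled, and the labels do not say how it was divided among the arrays; levels of Y-linked genes, given with Magel2 and Ndn, show that arrays within a genotype carried different RNA. The question is which imprinted transcripts of the arch differ when Tbx1, a T-box factor active in the pharyngeal region, is missing.

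Imprinted genes lie in clusters. In each cluster a control region that is methylated on 1 parental copy sets which neighbours are read from which parent, so paternally and maternally expressed genes stand side by side, often with a long non-coding RNA among them. Many paternally expressed genes promote embryonic growth and many maternally expressed ones restrain it. Plagl1 (also called Zac1) encodes a zinc-finger transcription factor that binds GC-rich sites, and in mice it regulates other imprinted genes, Igf2, H19, Cdkn1c and Dlk1 among them. The arrays read the RNA of both parental copies together, so nothing here tells which copy a transcript came from.

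The 250 bases upstream of the annotated starts of the 2 members that passed the test, Plagl1 and Meg3, and of Dlk1, the neighbour of Meg3, and Zim1 of the Peg3 domain, are shown because 2 short motifs linked to imprinting can be looked for in them. Dlk1 and Zim1 did not pass the test. They are taken from RefSeq (GRCm38.p6), which held starts for 26 of the 34 genes. Capitals mark GGGGCC, the core of the GC-rich site of Plagl1, and TGCCGC, the letters read by the imprint-keeping zinc-finger protein Zfp57 when methylated, each on either strand. The 2 motifs cannot overlap each other. Plagl1 (chr10:13090582-13090831, plus strand) has 1 of each, Meg3 (chr12:109540746-109540995, plus strand) and Zim1 (chr7:6696433-6696682, minus strand) have 1 TGCCGC, and Dlk1 (chr12:109452573-109452822, plus strand) has neither.
Plagl1: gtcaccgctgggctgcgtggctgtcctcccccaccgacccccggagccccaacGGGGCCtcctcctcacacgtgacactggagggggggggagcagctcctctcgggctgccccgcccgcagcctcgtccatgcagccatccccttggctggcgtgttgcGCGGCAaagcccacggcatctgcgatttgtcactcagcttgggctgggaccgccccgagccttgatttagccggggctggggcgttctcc
Meg3: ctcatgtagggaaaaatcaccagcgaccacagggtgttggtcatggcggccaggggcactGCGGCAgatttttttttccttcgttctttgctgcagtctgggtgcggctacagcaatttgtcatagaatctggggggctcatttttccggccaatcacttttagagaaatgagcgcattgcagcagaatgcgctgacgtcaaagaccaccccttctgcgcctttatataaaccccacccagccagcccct
Dlk1: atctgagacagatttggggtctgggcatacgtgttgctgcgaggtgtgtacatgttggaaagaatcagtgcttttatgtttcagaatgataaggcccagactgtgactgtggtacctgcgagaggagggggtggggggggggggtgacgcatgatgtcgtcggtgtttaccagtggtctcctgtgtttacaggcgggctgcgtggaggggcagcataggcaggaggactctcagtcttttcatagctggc
Zim1: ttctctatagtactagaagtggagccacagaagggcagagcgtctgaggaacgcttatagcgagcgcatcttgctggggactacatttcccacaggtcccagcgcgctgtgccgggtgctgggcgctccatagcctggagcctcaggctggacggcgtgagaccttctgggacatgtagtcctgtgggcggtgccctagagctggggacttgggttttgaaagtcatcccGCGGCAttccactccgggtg
Meg3 has another annotated start, whose upstream window holds neither motif. Over all 32851 such windows of the table, 22% held GGGGCC and 8.68% held TGCCGC. Among the 37 windows of the 26 members 14 held GGGGCC and 7 held TGCCGC, the last in Meg3, Mest, Nap1l5, Plagl1, Zdbf2 and Zim1. The windows of the members also held more CpG, with a median of 10 against 6 over all windows. These matches are letters only. By gene, 11 of the 26 had a window with GGGGCC and 6 had one with TGCCGC. The windows are not all separate sequence: 2 windows of Mest, which both hold both motifs, share 247 bases, and those of Peg3 and Usp29, on opposite strands, share 163.

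Meg3 and Plagl1 rose in Tbx1 null arches, and no member passed the test as lower. Both passed limma's Benjamini-Hochberg limma adjusted p of 0.05 over 19938 genes, of which 0.0853% were higher and 0.0752% lower at that threshold. All values are log2 expression levels, and changes are Tbx1 null minus wild type. In either direction 0.16% of all genes passed. The smallest change among the genes that passed, in size, was 0.365. A smaller change that did not pass is therefore not shown to be absent. Over all genes 17 were higher and 15 lower, a split that turned to 12 and 22 with quantile normalisation repeated and to 16 and 30 with arrays centred on the median of all probe sets. Meg3 and Plagl1 passed under both of these scalings. Neither passed in the fit to every probe set (limma adjusted p = 0.0687 for Meg3 and 0.0959 for Plagl1, with 1 gene higher and 3 lower in all) or with a replicate block (0.0827 each, with 2 genes higher and 4 lower in all). With limma p-values before adjustment and the same threshold, 12 of 34 members were higher and 4 were lower, beside 5.5% and 3.94% of all genes (9.44% in either direction). Of the members, 24 lay above the median level. In the fit to such genes 811 of 9969 were higher and 431 lower before adjustment. All 3 Tbx1 null arrays lay above all 3 wild-type arrays for 15 members and below them for 3, beside 8.36% and 7.06% of all genes (15.4% in either direction). A change above 0 was seen in 24 members, beside 46.5% of all genes. The median change was 0.08 over the members and -0.01 over all genes. The members were chosen with earlier results of these data known, so these shares and medians describe the set and test nothing about it. In pooled tissue, more cells of a type and more RNA per cell cannot be told apart.

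**Figure D1:**
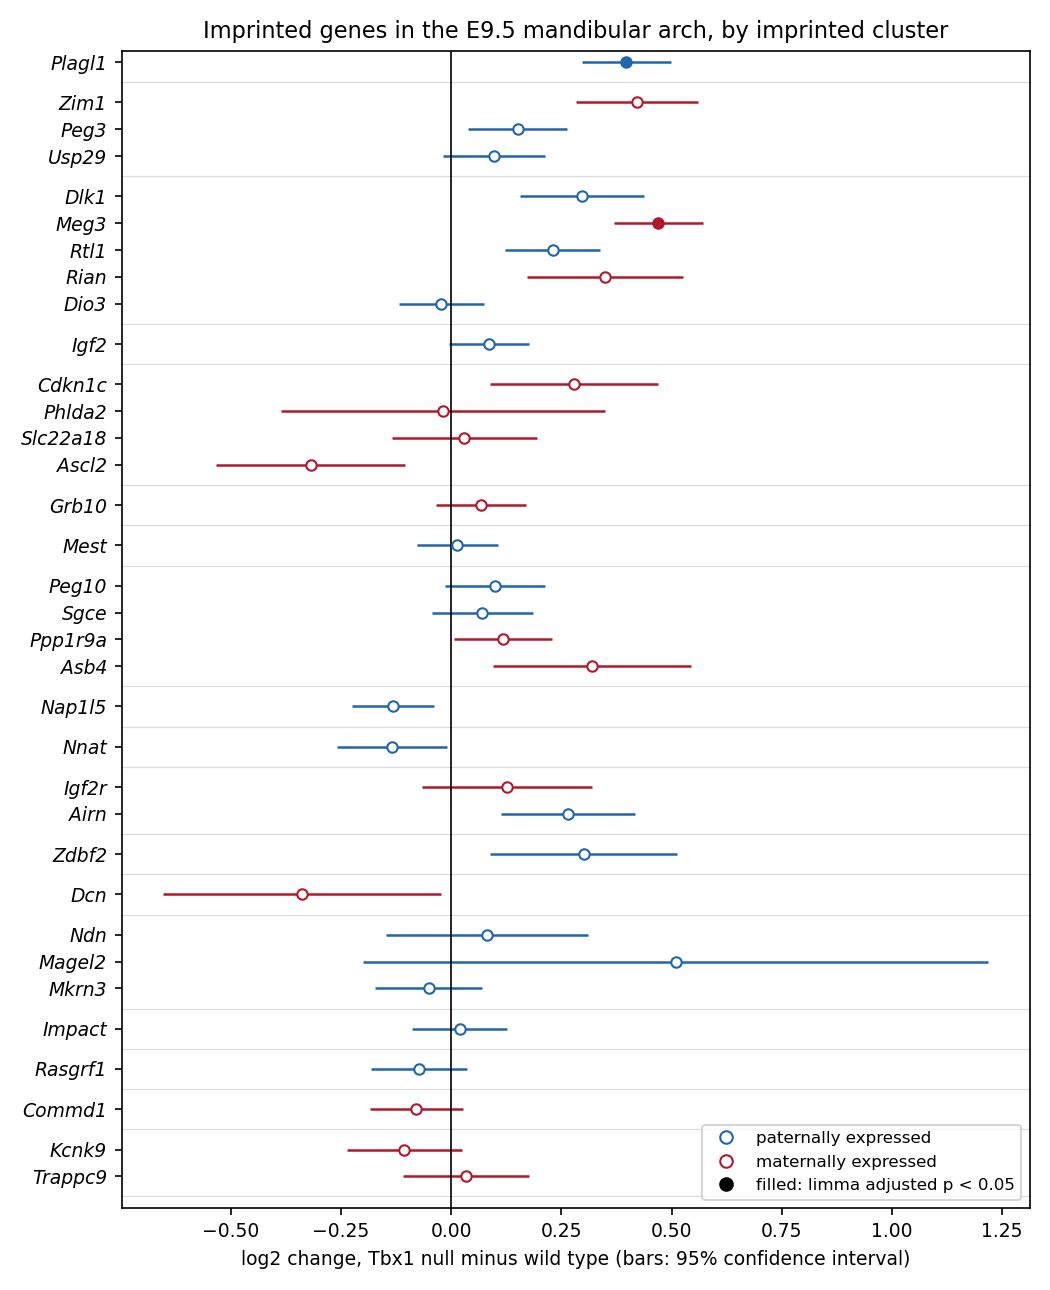
Log2 change (Tbx1 null minus wild type, horizontal axis) of the 34 measured genes, grouped by imprinted cluster, with 95% confidence intervals from limma; blue points are paternally and red points maternally expressed genes, and filled points passed the adjusted threshold. Plagl1 and Meg3 are the filled points, and the interval of Magel2 is the widest, from -0.20 to 1.22.

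Genes of both parental kinds were among the higher ones. Of 19 paternally expressed members 1 passed (Plagl1), 14 lay above 0, and before adjustment 6 were higher and 2 were lower at a limma p below 0.05. Of 15 maternally expressed members 1 passed (Meg3), 10 lay above 0, and again 6 were higher and 2 were lower. Of all genes 0.16% passed, 46.5% lay above 0, and before adjustment 5.5% were higher and 3.94% lower. The median change was 0.09 in the paternal and 0.07 in the maternal set. The maternal median depended on genes whose imprinting is known mainly from placenta or brain. Without such genes it was 0.28 over the 9 left, and the paternal median was 0.10 over the 17 left. Without wild type replicate 1 the paternal median was 0.06.

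**Figure D2:**
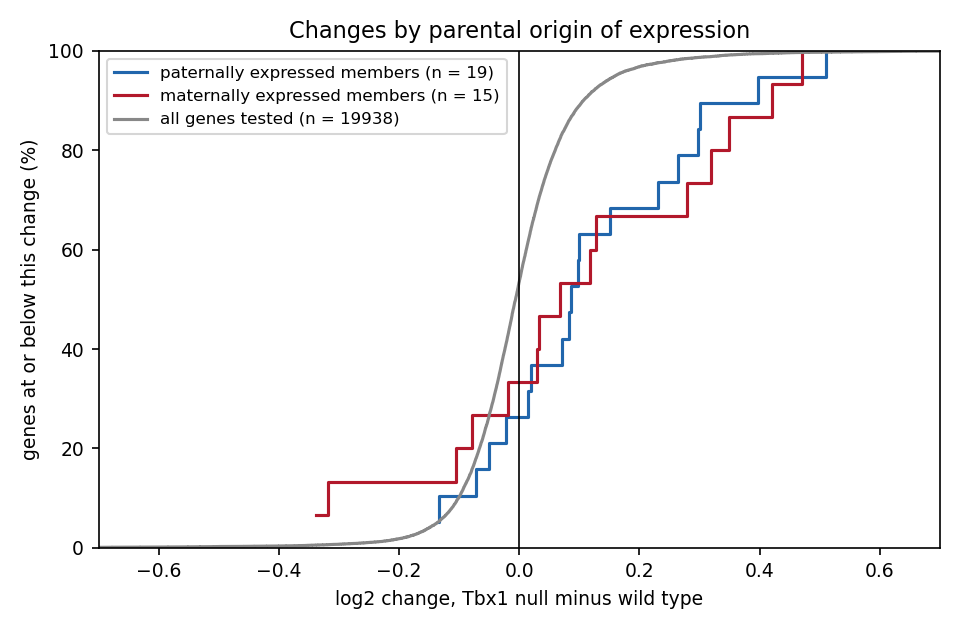
Share of genes (vertical axis, percent) with a log2 change, Tbx1 null minus wild type, at or below the value on the horizontal axis, for the 19 paternally expressed members, the 15 maternally expressed members and all 19938 genes tested. Both coloured lines lie to the right of the grey line over most of the range, with medians of 0.09, 0.07 and -0.01; genes beyond the ends of the axis are not drawn.

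Plagl1 (probe set 10361771) had log2 levels of 11.64, 11.59 and 11.62 on the Tbx1 null arrays, against 11.21, 11.19 and 11.26 on the wild-type arrays. The genotypes did not overlap, and within each the arrays lay close together. The change was 0.40 (95% confidence interval 0.30 to 0.50), or 1.32-fold, with a limma adjusted p = 0.0305. The value stayed between 0.38 and 0.42 with any array left out, but the adjusted p passed only without wild type replicate 3 (0.0497) and lay between 0.081 and 0.166 without any other array. Of its relatives, Plag1, a growth-promoting zinc-finger factor, had a change of 0.18 (limma adjusted p = 0.513) and Plagl2 one of -0.02. Among 7 measured of 8 listed family members and reported targets none passed, beside 0.16% of all genes. Before adjustment 2 were higher and 1 lower at a limma p below 0.05, beside 5.5% and 3.94% of all genes. The keratin gene Krt14 had a change of 0.43, the bHLH gene Tcf4 one of -0.12 and Socs3, a brake on cytokine signalling, one of -0.09. The median of the list was -0.02.

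**Figure D3:**
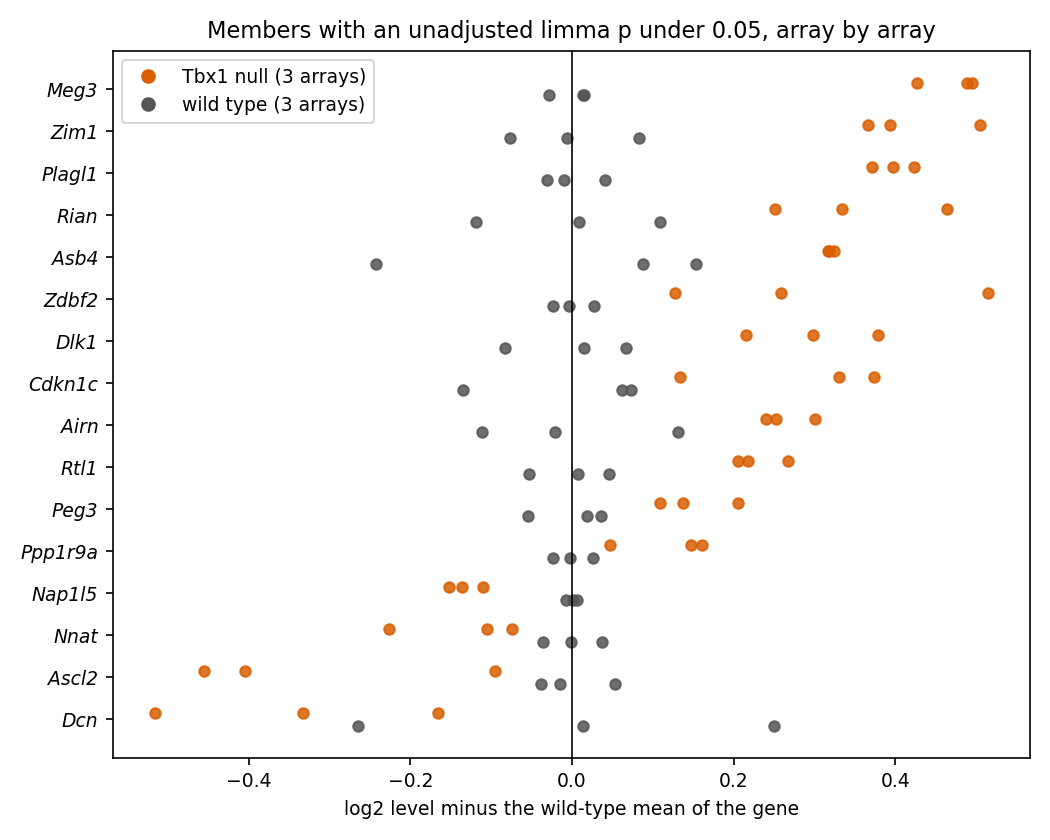
Log2 level of each array minus the wild-type mean of the gene (horizontal axis) for the 16 members with an unadjusted limma p under 0.05; orange points are the 3 Tbx1 null arrays and grey points the 3 wild-type arrays. The genotypes are apart for all genes shown but Dcn, and the null arrays are to the right for 12 of them.

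In the Dlk1-Dio3 domain of chromosome 12, Meg3 rose, and 3 other genes lay higher on all null arrays without passing the test. Of all genes, 8.36% were higher without overlap. Maternally expressed Meg3 (probe set 10398326), a long non-coding RNA, had levels of 12.14, 12.14 and 12.08 on the null arrays, against 11.62, 11.66 and 11.66 in wild type. The groups were far apart relative to their spread. The change was 0.47 (95% confidence interval 0.37 to 0.57), 1.39-fold, with a limma adjusted p = 0.0142. It ranged from 0.46 to 0.49 with an array left out. The adjusted p then passed only without Tbx1 null replicate 3 (0.0469) or wild type replicate 3 (0.0398), and was 0.0844 and 0.144 when Tbx1 null replicates 1 and 2 were dropped in turn, and 0.051 and 0.116 when wild type replicates 1 and 2 were.

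The other measured genes of the domain did not pass. Rian, a maternally expressed non-coding RNA that hosts small nucleolar RNAs, had levels of 8.56, 8.69 and 8.48 in Tbx1 null, against 8.34, 8.11 and 8.24 in wild type. Its change of 0.35 had a limma adjusted p of 0.177. Dlk1, a paternally expressed transmembrane relative of the Notch ligands that holds back differentiation, had levels of 13.58, 13.50 and 13.42 in Tbx1 null, against 13.12, 13.22 and 13.27 in wild type. Its change was 0.30 (limma adjusted p = 0.15). Rtl1, a paternally expressed gene derived from a retrotransposon, had levels of 8.72, 8.78 and 8.73 in Tbx1 null, against 8.52, 8.46 and 8.56 in wild type, a change of 0.23 (limma adjusted p = 0.143). For all 3 genes the genotypes did not overlap. Dio3, the thyroid hormone inactivating deiodinase at the far end of the domain, had levels of 6.80, 6.79 and 6.81 in Tbx1 null, against 6.81, 6.80 and 6.86 in wild type. These overlapped, with a change of -0.02 (95% confidence interval -0.12 to 0.07). The mean level of Dio3, 6.81, lay at the first quartile of all genes tested, and signal over background could not be judged. The same limit holds for other dim members described below, among them Usp29 (mean level 7.20), Nap1l5 (7.24) and Ascl2 (7.41). Rtl1 has antisense transcripts, and the sources used here do not say which strand a probe set reads, so signal from an overlapping partner cannot be told apart.

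The genes around the domain were taken in RefSeq gene order. The 5 nearest measured genes on each side had changes between -0.04 and 0.11 with a median of 0.00351, and none of these 10 had an unadjusted limma p under 0.05. Begain, next to Dlk1, had a change of 0.11 and Ppp2r5c, next to Dio3, one of -0.04. Around Plagl1 the 10 flanking genes ranged from -0.07 to 0.20 with a median of 0.03. The highest was Utrn, the utrophin gene, with a limma p of 0.00527 before adjustment and 0.258 after it, and no overlap between genotypes; it was the only one of the 10 below 0.05 before adjustment. Around the Peg3 domain the 10 flanking genes ranged from -0.12 to 0.17 with a median of -0.02. There too 1 was below 0.05 before adjustment, the zinc-finger gene Zfp418 (change 0.17, limma adjusted p = 0.376, no overlap). Zfp772, in the same flank, was also higher without overlap (change 0.08), and Hsp90aa1 beyond Dio3 was lower without overlap (-0.02). None of these genes passed the adjusted threshold. Of all genes, 9.44% had a limma p below 0.05 before adjustment. The difference between a domain and its flanks was not tested.

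**Figure D4:**
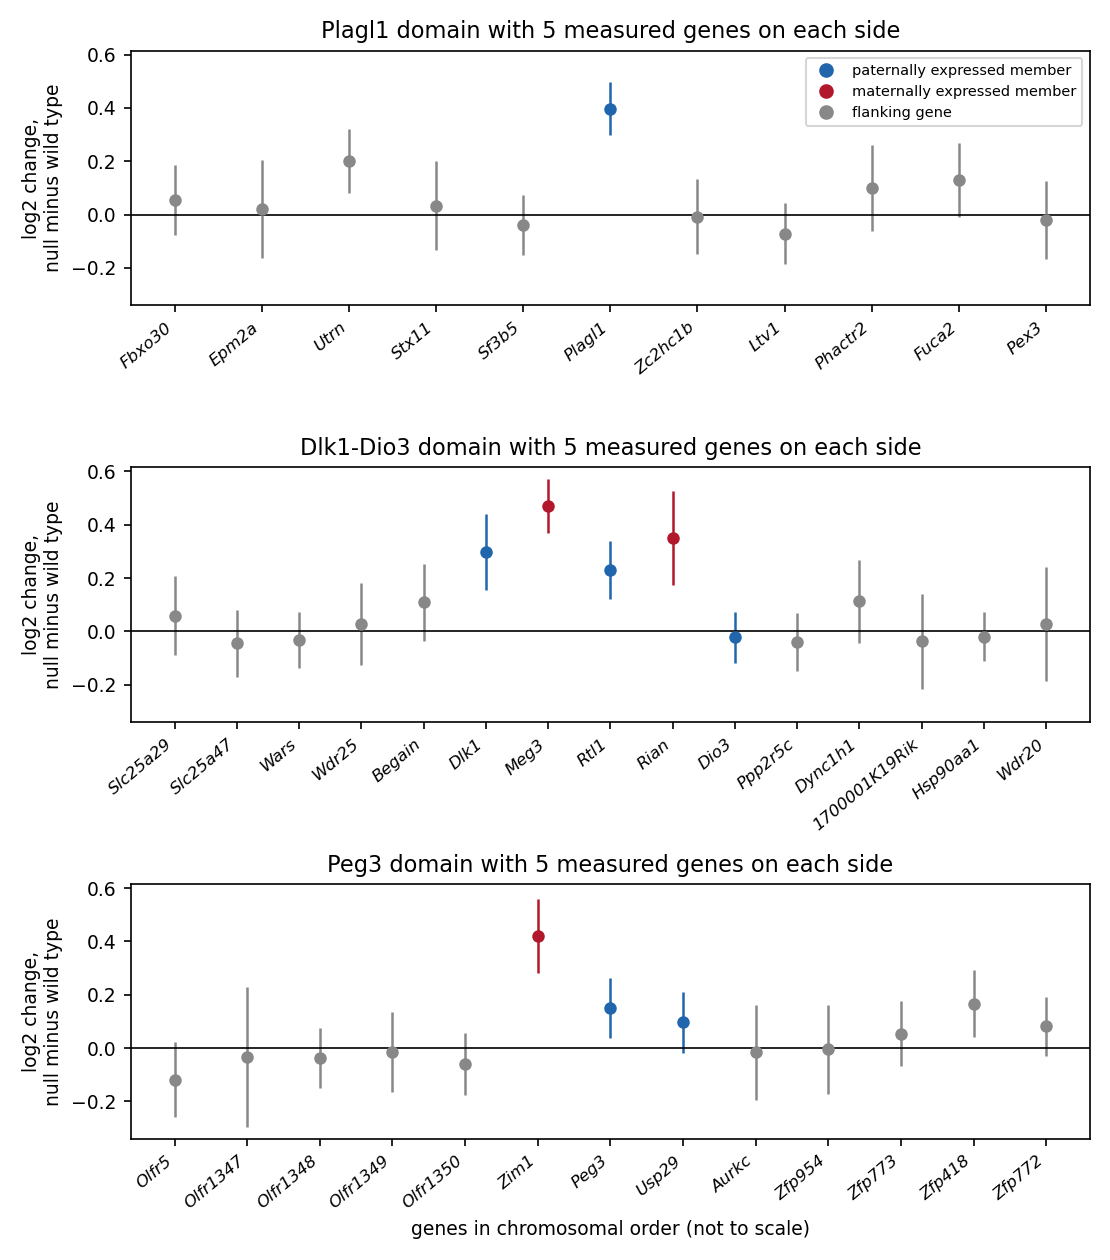
Log2 change, Tbx1 null minus wild type (vertical axis, bars 95% confidence intervals), of genes in chromosomal order for the Plagl1, Dlk1-Dio3 and Peg3 domains with 5 measured genes on each side; blue and red points are paternally and maternally expressed members and grey points flanking genes. Dlk1, Meg3, Rtl1 and Rian stand between 0.23 and 0.47, and the genes around them between -0.04 and 0.11.

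All 3 measured genes of the Peg3 domain of chromosome 7 lay higher on all null arrays, and none passed the test. Of all genes, 8.36% were higher without overlap. Zim1, a maternally expressed zinc-finger gene, had levels of 10.45, 10.48 and 10.59 in Tbx1 null, against 10.16, 10.01 and 10.08 in wild type. The groups were apart by more than the range of either, with a change of 0.42 (95% confidence interval 0.28 to 0.56), 1.34-fold, and a limma adjusted p = 0.0577, just above the threshold. Peg3, a paternally expressed zinc-finger gene that regulates growth and maternal behaviour in mice, had levels of 13.33, 13.36 and 13.43 in Tbx1 null, against 13.26, 13.24 and 13.17 in wild type. Its change was 0.15 (limma adjusted p = 0.374). Usp29, a ubiquitin protease gene that runs away from Peg3 out of the shared start region described above, had levels of 7.26, 7.26 and 7.22 in Tbx1 null, against 7.07, 7.21 and 7.17 in wild type, with a change of 0.10 (limma adjusted p = 0.613).

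Neighbours of opposite parental expression were compared directly in 3 measured pairs. Meg3 differed from Dlk1 by 0.17 in its change, and Zim1 from Peg3 by 0.27, the maternally expressed gene having the larger measured change in each. It also had the lower mean level in each (Meg3 11.88 against Dlk1 13.35, Zim1 10.29 against Peg3 13.30). The part of level in these differences was not tested. In both pairs the per-array differences did not overlap between genotypes (exact two-sided permutation test, p = 0.1, the smallest that 3 against 3 arrays allow; 0.15 after adjustment over the 3 pairs). In the third pair Igf2r differed from Airn by -0.14 (exact permutation p = 0.2 before and after adjustment), and the genotypes overlapped. The design could not reach a p of 0.05 in any of these tests.

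None of the imprinted genes of IGF signalling passed the test. Their changes were all smaller than 0.365, the smallest that passed over all genes, so this does not show that they were unchanged. Igf2, the paternally expressed insulin-like growth factor that drives embryonic growth, had levels of 13.80, 13.80 and 13.80 in Tbx1 null, against 13.71, 13.70 and 13.72 in wild type. The arrays separated cleanly by a small step, a change of 0.09 (95% confidence interval -0.004 to 0.178; limma adjusted p = 0.554). Its scavenger receptor Igf2r, maternally expressed, had levels of 11.65, 11.70 and 11.90 in Tbx1 null, against 11.76, 11.57 and 11.55 in wild type, and the groups overlapped (change 0.13). Airn, the paternally expressed non-coding RNA that runs across Igf2r and silences it in mice, had levels of 12.00, 11.99 and 12.05 in Tbx1 null, against 11.88, 11.73 and 11.64 in wild type. Its groups did not overlap, and its change was 0.26 (limma adjusted p = 0.232). As Airn overlaps Igf2r, the limit on strand given for Rtl1 holds here too. Grb10, a maternally expressed adaptor that dampens insulin and IGF receptor signalling, had levels of 13.38, 13.36 and 13.40 in Tbx1 null, against 13.37, 13.29 and 13.30 in wild type, a change of 0.07. Among 19 measured of 20 other genes of the IGF axis 0 passed limma's adjusted threshold, beside 0.16% of all genes. Before adjustment 3 were higher and 4 lower at a limma p below 0.05, beside 5.5% and 3.94% of all genes. The median change of these 19 was 0.04. Those of lowest p were the receptor substrate gene Irs2 (change 0.18) and the binding protein genes Igfbp7 (0.18), Igfbp2 (0.24) and Igfbp6 (-0.17).

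The maternally expressed genes of the Kcnq1 cluster had changes of both signs, and none passed. Cdkn1c, an inhibitor of cyclin-dependent kinases that limits growth, had levels of 11.03, 11.07 and 10.83 in Tbx1 null, against 10.56, 10.77 and 10.76 in wild type. The groups did not overlap but lay close to each other, and the change of 0.28 had a limma adjusted p of 0.327. Ascl2, a bHLH factor of the trophoblast lineage, had levels of 7.47, 7.16 and 7.11 in Tbx1 null, against 7.62, 7.55 and 7.53 in wild type. Its change was -0.32 (limma adjusted p = 0.322) and the groups did not overlap. Phlda2, a brake on placental growth, had a change of -0.02 with a 95% confidence interval of -0.39 to 0.35, and Slc22a18, a transporter gene, one of 0.03. The change of Phlda2 was 0.17 when wild type replicate 1 was left out and -0.17 when wild type replicate 2 was. The other 5 measured cyclin-dependent kinase inhibitor genes had changes between -0.09 and 0.02. None passed, beside 0.16% of all genes. Of the 5, 0 had an unadjusted limma p under 0.05, beside 9.44% of all genes.

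On chromosome 6, Asb4, a maternally expressed subunit of ubiquitin ligases in the Peg10 cluster, had levels of 11.48, 11.48 and 11.49 in Tbx1 null, against 10.92, 11.25 and 11.32 in wild type. Nearly all of its spread was between the wild-type arrays. The change of 0.32 (limma adjusted p = 0.34) was 0.20 without wild type replicate 1. Its neighbours had smaller positive values: 0.10 for Peg10, a retrotransposon-derived gene needed for the placenta, and 0.07 for the sarcoglycan gene Sgce. Ppp1r9a, which encodes the actin-binding protein neurabin, had levels of 9.07, 9.18 and 9.17 in Tbx1 null, against 9.0002, 9.05 and 9.02 in wild type, without overlap and with a change of 0.12 (limma adjusted p = 0.485). Mest, a paternally expressed gene of mesoderm, was at 14.09, 14.06 and 14.06 in Tbx1 null, against 14.04, 14.06 and 14.06 in wild type, a change of 0.01 (95% confidence interval -0.08 to 0.11). Nap1l5, a paternally expressed retrogene, had levels of 7.15, 7.19 and 7.17 in Tbx1 null, against 7.31, 7.31 and 7.30 in wild type. It was lower on every null array by a step of -0.13 (limma adjusted p = 0.34).

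Of the remaining paternally expressed genes, Zdbf2, a zinc-finger gene of chromosome 1, had levels of 10.20, 10.33 and 10.58 in Tbx1 null, against 10.06, 10.10 and 10.04 in wild type. The groups did not overlap, but the null arrays were spread widely, and the change of 0.30 had a limma adjusted p of 0.344. Nnat, which encodes the membrane proteolipid neuronatin, had levels of 13.32, 13.29 and 13.17 in Tbx1 null, against 13.36, 13.39 and 13.43 in wild type, a change of -0.14 (limma adjusted p = 0.473). Of the maternally expressed genes, Dcn, the decorin gene of connective tissue matrix, had levels of 8.03, 8.22 and 8.38 in Tbx1 null, against 8.80, 8.29 and 8.57 in wild type. These overlapped, and the change of -0.34 (limma adjusted p = 0.479) was -0.21 without wild type replicate 1. The other members had changes between -0.11 and 0.03 and overlapping groups: the eIF2 kinase regulator gene Impact (0.02), the Ras exchange factor gene Rasgrf1 (-0.07), Commd1 (-0.08), the potassium channel gene Kcnk9 (-0.11) and Trappc9 (0.03).

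Magel2 had the largest change of all members and was not called. This gene of the Prader-Willi region, paternally expressed and active in neurons, had levels of 10.18, 10.05 and 9.41 in Tbx1 null, against 8.70, 9.55 and 9.85 in wild type. The groups overlapped over much of their range, with a change of 0.51 (95% confidence interval -0.20 to 1.22; limma adjusted p = 0.674). Leaving out wild type replicate 1 gave 0.18, and leaving out Tbx1 null replicate 3 or wild type replicate 3 gave 0.75. Ndn, the necdin gene beside it, had levels of 12.77, 12.75 and 12.54 in Tbx1 null, against 12.41, 12.67 and 12.74 in wild type. It showed the same low arrays, Tbx1 null replicate 3 and wild type replicate 1, on a smaller scale (change 0.08). Mkrn3 of the same region had a change of -0.05. The mean log2 level of 3 Y-linked genes (Uty, Eif2s3y and Kdm5d) was 9.58, 9.28 and 5.73 on the null arrays, against 8.57, 9.07 and 9.85 on the wild-type arrays, so its lowest arrays were the same 2, and the arrays of a genotype did not hold the same mix of male and female tissue. Its part in these values was not tested.

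**Figure D5:**
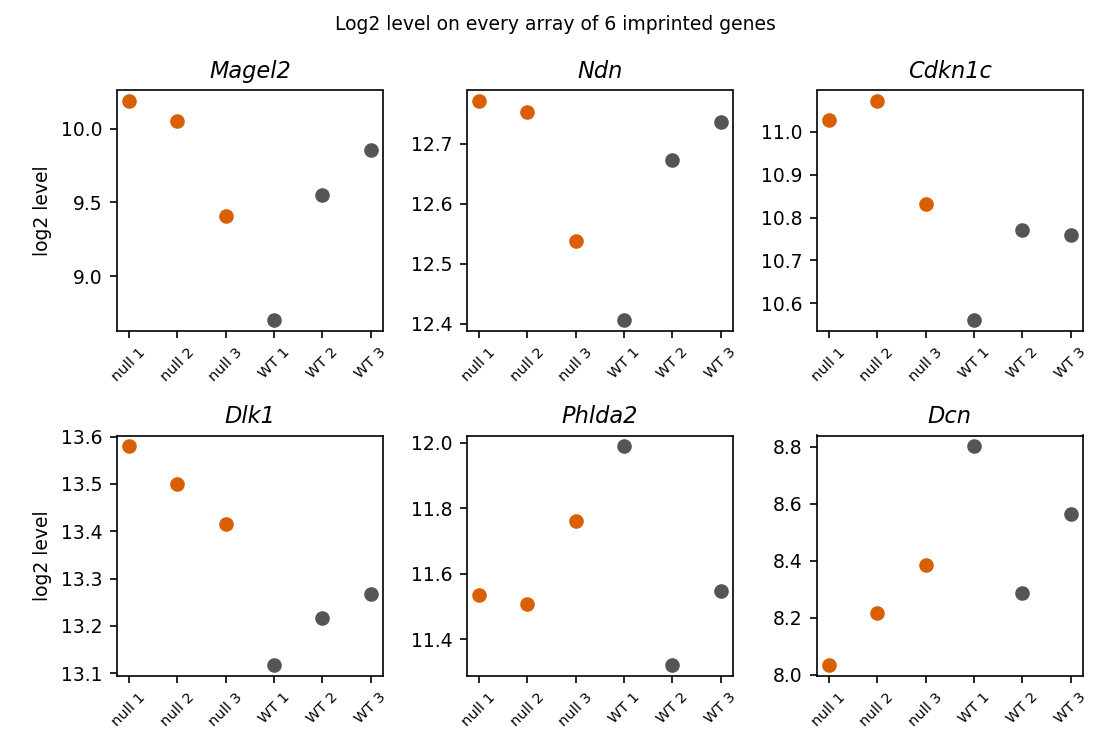
Log2 level (vertical axis, with its own range in each panel) on each of the 3 Tbx1 null arrays (orange) and 3 wild-type arrays (grey) for Magel2, Ndn, Cdkn1c, Dlk1, Phlda2 and Dcn. Tbx1 null replicate 3 and wild type replicate 1 are the lowest of their genotype for Magel2, Ndn, Cdkn1c and Dlk1 and the highest for Phlda2 and Dcn.

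Genes that set and keep imprints gave no call. Of 23 listed and measured members, with a median change of 0.002, 0 passed limma's adjusted threshold, beside 0.16% of all genes. At such a share, 0 calls in a short list say little. An unadjusted limma p under 0.05 was seen in 0 of the 23, beside 9.44% of all genes. The maintenance methyltransferase gene Dnmt1 had a change of -0.01. The members of lowest p were the dioxygenase genes Tet1 (0.13) and Tet2 (0.10), Zfp57 (0.11), which protects imprints from loss of methylation, and Arid4b (0.08). Other imprinted genes, 29 measured of 33 listed, gave 0 calls too, beside the same 0.16% of all genes. Before adjustment 1 was higher and 3 were lower at a limma p below 0.05, beside 5.5% and 3.94% of all genes. Cobl, an actin nucleator gene next to Grb10, had a change of -0.23, the glutaminyl cyclase gene Qpct one of -0.19, the flippase gene Atp10a one of 0.19 and the serotonin receptor gene Htr2a one of -0.13. The median of this list was -0.0007, against 0.08 over the members. Members and lists were chosen with earlier results of these data known, so this contrast is a description, not a test.

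Tbx1 itself fell to log2 levels of 9.48, 9.39 and 9.63 in Tbx1 null, against 11.64, 11.36 and 11.31 in wild type (change -1.94, limma adjusted p = 0.000684). All 8 mandibular mesenchyme markers, Prrx1, Dlx5 and Hand2 among them, were measured. Their summed level, on a log2 scale, was 15.17 to 15.28 in Tbx1 null, against 14.97 to 15.15 in wild type. Before adjustment 4 of 8 were higher at a limma p below 0.05, beside 5.5% of all genes. The sum of 5 epithelial markers was also higher, at 14.08 to 14.20 against 13.88 to 14.00, and that of 5 of 6 primitive erythroid markers lower, at 14.76 to 14.86 against 15.002 to 15.03. The sum of 4 of 5 core mesoderm markers was 11.305 to 11.57, against 11.62 to 11.79. Lhx2 fell by 1.56 (limma adjusted p = 0.000784). Tcf21 had a change of -0.53 (limma adjusted p = 0.324) without overlap, and Msc one of -0.13. Only Isl1 lay above 0, with a change of 0.36 (limma adjusted p = 0.279) without overlap. Endothelial and neural sums overlapped, as did those of 6 yolk sac markers (9.74 to 9.89 in Tbx1 null, against 9.78 to 9.94 in wild type). Of 5 trophoblast markers 2 were measured, Plac1 and Tpbpa (level 4.78 in both genotypes). Plac1 had a change of 0.33 without overlap, with a limma adjusted p of 0.05002, just above the threshold. The part of these shifts in the imprinted genes was not tested.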

How the data were processed

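Each deposited array column holds 1 log2 value per probe set; the submitters' processing notes name RMA and Affymetrix Expression Console 1.1 as what the authors used, and the values themselves (3.63 to 14.6) show a log2 scale. No genome build or summary level was found in the labels, and signal over background could not be judged. RMA draws array distributions together, so a shift shared by most genes cannot be seen. Of 35556 probe sets, 21789 had 1 symbol in the platform annotation, 1621 had several and 12146 none; with the probe set of highest mean per gene, 19938 genes were tested. Tests of Tbx1 null against wild type used lmFit and eBayes of limma 3.58.1 (R 4.3.3), without covariates and two-sided, on 3 arrays per genotype, with Benjamini-Hochberg adjustment over all genes and a threshold of 0.05; adjusted p-values given for a left-out array or another setting come from limma refitted that way. Precision is set by the number of arrays, with a median SE of 0.0579 for a change. The p-values rest on the spread among the arrays; the Y-linked levels show that arrays of a genotype held different RNA, but not which embryos each held. Pairs of neighbours were compared by exact permutation (scipy 1.17.1), adjusted over the 3 pairs. The fit was tested on simulated data. The members, lists and comparisons were chosen with earlier results of these data known; parental origin and cluster came from general knowledge. Named were all measured members, with every array for those at an unadjusted p under 0.05, Tbx1, and up to 4 genes of lowest p per list. Array values of further members, and the values of Begain, Ppp2r5c, Utrn, Zfp418, Lhx2, Isl1, Tcf21, Msc, Plagl2 and Dnmt1, were added after values were seen. Same-numbered arrays did not deviate together in every pair (correlations of -0.045, 0.26 and 0.149 over genes), so numbers were not taken to pair them. Igf2 with H19 and Cdkn1c with Kcnq1ot1 could not be compared, as a partner was not measured. The closing section gives the alternatives tried.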

Additional observations from a re-analysis of the deposited data

How the results depend on the processing

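Alternatives were a replicate block, 1 array left out at a time, repeated quantile normalisation, median centring, 2 filters on dim genes, another variance model, array weights, averaged probe sets and a fit to every probe set. Centring was computed with the median of the gene table and with that of all probe sets; the gene table was kept as the planned setting after the counts of both had been seen, and the other was added after seeing the data. The count of 2 members higher was 0 with the replicate block and with every probe set, 4 (2 paternal, 2 maternal) with a trend and robust estimation and 7 (4 paternal, 3 maternal) with array weights. Calls over all genes grew as well, to 57 higher and 39 lower with trend and robust estimation and 226 and 108 with array weights, against 17 and 15. With genes above the median level, 2 maternally expressed members passed (Meg3 and Zim1). With the block or every probe set the paternal and maternal counts were 0 each. Leaving out 1 array gave 0 to 2 members, 0 to 1 paternal and 0 to 1 maternal. No member passed the threshold as lower under any of these settings. Numbers pair the arrays by name only. Tbx1 null replicates 2 and 3 correlated best with their own number and replicate 1 did not, and Plagl1 and Meg3 had a limma adjusted p of 0.0827 with the block. The median over members was 0.123 above the median level, with 0.125 for paternal and 0.123 for maternal members, and the maternal median with broad imprinting only was 0.279. With an array left out the medians ranged from 0.078 to 0.0993 (all), 0.0595 to 0.107 (paternal) and 0.0512 to 0.111 (maternal). With centring on the median of all probe sets it was 0.0578 over members and 0.0601 over paternal members, where the median of all genes was -0.0326, and the same 2 members passed. Pathway genes past the threshold were 2 higher and 1 lower with array weights and 0 otherwise. Changes near 0 turned sign: Mest to -0.000123 with centring on the gene table and -0.0122 with centring on all probe sets, Impact to -0.00701 with the last, Slc22a18 to -0.00972 and Trappc9 to -0.00727 with quantile normalisation, and Mkrn3 to 0.0149 and Phlda2 to 0.121 with array weights. With an array left out the ranges were -0.007 to 0.044 for Impact, -0.0171 to 0.156 for Ndn, -0.167 to 0.167 for Phlda2, -0.0117 to 0.111 for Slc22a18 and -0.0212 to 0.0639 for Trappc9. The causes were not tested.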

Other observations

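Across the measured imprinted genes, 2 arrays were often the extreme ones of their genotype in the same direction, a pattern chosen after the values were seen. Tbx1 null replicate 3 and wild type replicate 1 were both the lowest of their genotype for 9 of 34 members (26.5%), beside 13.9% of all genes tested. These were Usp29, Dlk1, Meg3, Cdkn1c, Mest, Sgce, Nnat, Ndn and Magel2. Both were the highest for 10 members (29.4%), beside 15.4% of all genes: Zim1, Peg3, Phlda2, Slc22a18, Grb10, Peg10, Igf2r, Airn, Dcn and Trappc9. On the same 2 arrays the summed mesenchyme markers were the lowest of their genotype (15.17 on Tbx1 null replicate 3 and 14.97 on wild type replicate 1) and the summed core mesoderm markers the highest (11.57 and 11.79). For the genes in these lists that barely vary, such as Mest, the order of arrays carries little. Other pairs of arrays were not counted this way. Over all genes, the deviations of these 2 arrays from their genotype means had a correlation of 0.122. It was 0.149 for Tbx1 null replicate 3 with wild type replicate 3. For wild type replicate 2 it was 0.25 with Tbx1 null replicate 1 and 0.26 with Tbx1 null replicate 2. What the 2 arrays have in common was not tested.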
